A study of Homo sapiens with 19 samples.

Results

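The comparison described here set 5 of the 19 arrays of the series against each other, 2 arrays of ploidy sublines of the bone-metastatic line 1833 and 3 arrays of weakly bone-metastatic lines. Every line goes back to MDA-MB-231, an established line of human breast cancer with mesenchymal features that is known as oestrogen receptor negative. Members were chosen by their titles and not by any measured value. The question was which traits of strongly bone-metastatic lines were still seen in sublines of 1833 that had been cultured separately, at either DNA content.

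The subline group held the modal-ploid subline of 1833, whose cells have the usual DNA content of the line, and the hyper-ploid subline of 1833, whose DNA content is raised. The strongly bone-metastatic lines 1833 (after short culture), 2274, 2268 and 2269 gave 1 array each and stand beside the comparison. The weakly bone-metastatic lines were 2293, 2295 and a line titled 2296 that another label calls 2297, with 1 array each. The parental MDA-MB-231 had 1 array. All cells were grown in DMEM with serum, antibiotics and selective drugs that the labels do not name, and were harvested before confluence. Both sublines come from the same line, so their spread covers ploidy, culture and array and not independent origins. Line 1833 is behind 3 arrays, its own and those of its sublines, and every other line had 1 array. The p-values therefore measure the spread between lines within the strong and the weak group, pooled with the spread between the sublines of 1 line.

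Values are log2 of the deposited ratio, each array set to a median of 0. On this scale 0 is close to the gene's median over the 10 parental, subline and bone-line arrays. Differences are the mean of the sublines minus the mean of the weak lines, with a standard error (SE), and p-values from limma were adjusted over 9118 genes, with a threshold of 0.05. The same was done for the strong lines minus the weak lines. These comparisons share the weak lines, so their values are given side by side. The sublines were also tested against the strong lines directly, and that test uses no weak line. A gene was called dim on an array when its signal lay at or below that array's 40th percentile. Where every array of a group was dim, the fold is given as "at least" a bound, the brighter group's mean over the dim group's mean after raising dim signals to that percentile.

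Array signal was lower on both subline arrays than on the strong-line and weak-line arrays, which overlapped. Median signal was 89.25 to 97.7 units on the subline arrays, 126.75 to 161.9 on the strong-line arrays and 144.1 to 151.45 on the weak-line arrays. After scaling to a common median, the biotin-labelled spike-in controls averaged 10.0 on the log2 scale on both subline arrays and 11.0 to 11.2 on the weak-line arrays. They averaged 10.8 to 11.4 on the strong-line arrays and 11.2 on the parental array. Array handling and subline group therefore cannot be told apart, either against the weak lines or against the strong lines. All 7 genes chosen as high in MDA-MB-231 were above the 40th percentile on subline and weak arrays alike. Of those 7 genes, S100A4 was lower in the sublines (-1.44, adjusted p = 0.0075) and the other 6 did not pass. Among further kept probe sets, 1 of AXL differed by 1.22 (adjusted p = 0.0029) and 1 of CD44 by -0.76 (adjusted p = 0.0186). With the mean of all kept probe sets 1 of the 7 was higher and 1 lower. Of 7 genes chosen as low in MDA-MB-231, 4 were above that percentile on at least 1 subline array and 3 on at least 1 weak-line array. ERBB2 and GATA3 were above it on every subline and weak-line array, and KRT5 on both subline arrays and no weak-line array. ESR1, the oestrogen receptor, lay above that percentile on 1 of 2 subline arrays and 2 of 3 weak-line arrays, and did not pass (0.20, adjusted p = 0.694). None of the 4 low genes that were tested passed.

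As background, tumour cells that grow in bone act on osteoclasts, the cells that resorb bone, and on osteoblasts, the cells that build it. The factors first tied to bone colonisation by MDA-MB-231 sublines include the chemokine receptor CXCR4, the cytokine interleukin 11, the matricellular protein CCN2, the metalloproteases MMP1 and ADAMTS1, the activin-binding protein follistatin (FST), the growth factor FGF5 and the proteoglycan core protein serglycin (SRGN). Inflammatory chemokine genes are classic targets of NF-kB, and many secreted factors are targets of AP-1.

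Promoters of 4 genes that the results turn on are shown, because their short sequence matches can be read beside the expression values. Each is 250 bases before to 50 after the gene's start on its own strand, from RefSeq on GRCh38.p14. CXCL1 (chr4:73869143-73869442, plus strand) and CCL20 (chr2:227813592-227813891, plus strand) encode chemokines that were lower in the sublines. Capitals mark the NF-kB type motif on either strand, which is GGG, any 2 bases and TTTCC.
CXCL1: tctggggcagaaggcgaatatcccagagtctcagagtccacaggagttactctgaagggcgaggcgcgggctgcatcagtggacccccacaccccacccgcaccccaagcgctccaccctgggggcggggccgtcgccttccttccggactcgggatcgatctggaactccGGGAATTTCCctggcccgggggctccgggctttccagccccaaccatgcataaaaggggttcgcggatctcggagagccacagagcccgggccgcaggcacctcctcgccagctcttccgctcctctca
CCL20: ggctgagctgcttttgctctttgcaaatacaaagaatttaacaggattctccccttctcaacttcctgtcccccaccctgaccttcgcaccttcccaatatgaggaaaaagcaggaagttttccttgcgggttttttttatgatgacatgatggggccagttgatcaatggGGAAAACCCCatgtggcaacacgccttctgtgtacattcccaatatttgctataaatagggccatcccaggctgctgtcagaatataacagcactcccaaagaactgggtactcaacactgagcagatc
IL11 (chr19:55370414-55370713, minus strand) and FST (chr5:53480379-53480678, plus strand) were higher in the sublines. In these sequences capitals mark the AP-1 type motif TGANTCA.
IL11: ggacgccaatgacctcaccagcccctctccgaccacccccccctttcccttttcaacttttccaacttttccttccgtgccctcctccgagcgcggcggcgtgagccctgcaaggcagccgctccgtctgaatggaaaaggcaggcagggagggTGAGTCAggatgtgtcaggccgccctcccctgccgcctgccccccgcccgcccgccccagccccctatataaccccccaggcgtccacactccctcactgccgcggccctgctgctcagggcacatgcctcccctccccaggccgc
FST: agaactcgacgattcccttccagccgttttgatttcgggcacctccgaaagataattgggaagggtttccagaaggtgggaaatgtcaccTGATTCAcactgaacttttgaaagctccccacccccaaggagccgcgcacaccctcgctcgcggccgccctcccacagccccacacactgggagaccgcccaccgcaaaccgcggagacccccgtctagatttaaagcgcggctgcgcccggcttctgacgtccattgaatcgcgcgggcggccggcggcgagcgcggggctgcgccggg

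Both motifs were searched on both strands, and no gene of the lists searched held both. The NF-kB type letters occur in 1.92% of all 27305 promoters of that length and the AP-1 type letters in 7.76%. Of 6 inflammatory chemokine and cytokine genes that were lower in the sublines and had a promoter entry, 5 held the NF-kB type letters, namely CCL20, CXCL1, CXCL2, IL32 and IL6. Among 6 genes of that list that did not pass, 1 held them. Of 5 bone metastasis genes that were higher and had an entry, 2 held the AP-1 type letters, IL11 and FST. The AP-1 type letters also stood in IL23A, which was higher, in CXCL8 and LCN2, which were lower, and in IL1A, which did not pass. None of 7 acute phase and complement genes that were lower held the NF-kB type letters. Among NF-kB pathway genes 1 of 3 that were lower and 3 of 10 that did not pass held them. These are matches of letters in a window and say nothing of binding.

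Between the sublines and the weak lines, 2131 of 9118 genes passed (23.4%), 1276 higher (14%) and 855 lower (9.38%) in the sublines. With arrays scaled to a trimmed mean signal the split was 1026 higher and 1271 lower, and with cyclic loess 1109 higher and 1194 lower, so which direction holds more genes depends on the scaling. The median difference over all genes was 0.07 in the main scaling and -0.09 with the trimmed mean. All 2131 had both sublines on the same side of all 3 weak lines, as did 58.2% of all genes tested, 32.8% with both above and 25.4% with both below. The strong lines against the weak lines gave 1609 genes (17.6%), 945 higher (10.4%) and 664 lower (7.28%), a split that became 857 higher and 879 lower with the trimmed mean and 928 and 966 with cyclic loess. The sublines against the strong lines gave 1049 (11.5%), 595 higher (6.53%) and 454 lower (4.98%). That split turned to 510 higher and 665 lower with the trimmed mean and to 574 and 584 with cyclic loess. It was 93 higher and 113 lower without the modal-ploid array and 64 and 74 without the hyper-ploid array. Of 49 named genes that passed against the strong lines, 24 still passed without the modal-ploid array, 23 without the hyper-ploid array and 18 in both cases, all in the same direction. Of the 2131 genes called against the weak lines, 1440 did not pass against the strong lines, where 11.5% of all genes tested passed. Not passing there does not show that sublines and strong lines were alike. A further 377 were higher in the sublines than in both weak and strong lines, and 302 were lower than in both.

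The bone metastasis genes were the list with the highest median difference of the 31 lists. Of its 8 members 7 were higher in the sublines and 0 lower, with a median of 2.79, beside 14% higher and a median of 0.07 over all genes tested. The strong lines had 7 of 8 higher than the weak lines, with a median of 3.65. The list had been drawn from earlier work on 1833 and related lines. Its direction in the strong lines and in the sublines of 1833 is therefore not independent evidence. Without the modal-ploid array or without the hyper-ploid array, 5 of 8 passed against the weak lines. Against the strong lines 0 of 8 passed in the main setting, beside 6.53% higher and 4.98% lower over all genes. With log2 of signal plus 16, or with the 60th percentile filter, 1 of 8 was lower than in the strong lines. The same count was seen with the mean of all kept probe sets and with an intensity trend in the variance.

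Serglycin, a proteoglycan core protein of secretory granules, showed one of the widest gaps. SRGN stood at 0.57 and 0.97 in the modal-ploid and hyper-ploid sublines, at 0.03 to 0.69 in the strong lines and at -4.21, -4.12 and -3.24 in the weak lines. That is a difference of 4.63 (SE 0.33, adjusted p = 0.000395), or 24.7-fold. Both sublines lay with the strong lines and far above every weak line, and the parental line was between the groups at -2.59.

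Follistatin, which binds activins and keeps them from their receptors, gave a similar picture. FST was 0.74 and 0.20 in the modal-ploid and hyper-ploid sublines, 0.01 to 0.63 in the strong lines and -3.79, -3.48 and -3.28 in the weak lines. The difference was 3.99 (SE 0.27, adjusted p = 0.000301), 15.9-fold. Here too the weak lines did not overlap any subline or strong line.

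ADAMTS1, a secreted protease that cleaves proteoglycans, was dim on all 3 weak-line arrays. Its values were 0.11 and 0.64 in the modal-ploid and hyper-ploid sublines, 0.03 to 0.74 in the strong lines and -6.11, -3.74 and -4.74 in the weak lines. The sublines were at least 14.2-fold higher than the weak lines (adjusted p = 0.00122). The order among the weak lines carries no information, because all were dim.

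Interleukin 11, a cytokine that promotes osteoclast formation, was 0.09 and 0.98 in the modal-ploid and hyper-ploid sublines. IL11 lay between 0.05 and 1.27 in the strong lines and at -3.60, -3.02 and -2.02 in the weak lines. The difference was 3.42 (SE 0.52, adjusted p = 0.00341), 10.7-fold. CCN2, also known as connective tissue growth factor, was -0.01 and 0.06 in the modal-ploid and hyper-ploid sublines, 0.15 to 0.64 in the strong lines and -2.41, -1.91 and -2.03 in the weak lines. It differed by 2.14 (SE 0.21, adjusted p = 0.00081), and its sublines were just under the lowest strong line. For SRGN, FST, ADAMTS1, IL11 and CCN2 the test against the strong lines did not pass, with differences between -0.30 and 0.53.

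The probe sets with the highest mean signal, which stand for their genes, passed by a narrow margin for CXCR4 and FGF5. CXCR4, the receptor for the chemokine CXCL12, which bone marrow stroma secretes, was 0.27 and -0.12 in the modal-ploid and hyper-ploid sublines. Strong lines ran between 0.06 and 1.91 and weak lines were at -1.61, -1.59 and -1.37. The difference was 1.60 (SE 0.47, adjusted p = 0.0421), 3.03-fold, and the call was lost in 9 of 15 alternative settings, with an adjusted p of up to 0.196. The other 2 kept CXCR4 probe sets differed by 4.47 and 5.06 (adjusted p = 0.0024 and 0.0179), and with the mean of all kept probe sets CXCR4 was higher by 3.71 (adjusted p = 0.00612), so its size depends on the probe set.

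FGF5, a fibroblast growth factor, was -0.10 and 0.11 in the modal-ploid and hyper-ploid sublines, against -0.54, -3.0 and -2.33 in the weak lines, and was dim in 2 of those 3. All strong lines were higher, at 1.35 to 1.92. The sublines exceeded the weak lines by 1.96 (SE 0.60, adjusted p = 0.0484), a call also lost in 9 of 15 settings. Its other kept probe sets differed by 3.23 (adjusted p = 0.0015) and 0.15 (adjusted p = 0.826), and the mean of all kept probe sets by 1.78 (adjusted p = 0.00119). Against the strong lines FGF5 differed by -1.68 (95% interval -2.99 to -0.38, adjusted p = 0.0928), and CXCR4 by -0.85 (95% interval -1.88 to 0.17, adjusted p = 0.245). Neither difference from the strong lines passed in the main setting, and the intervals leave room for sizeable deficits in the sublines.

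MMP1, an interstitial collagenase, did not pass. It was 1.21 and 0.17 in the modal-ploid and hyper-ploid sublines, -0.64 to 1.09 in the strong lines and -2.45, -1.83 and -0.17 in the weak lines. The groups did not overlap, but the spread among weak lines was wide, and the difference of 2.17 had an SE of 0.71 (adjusted p = 0.0587).

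**Figure D1:**
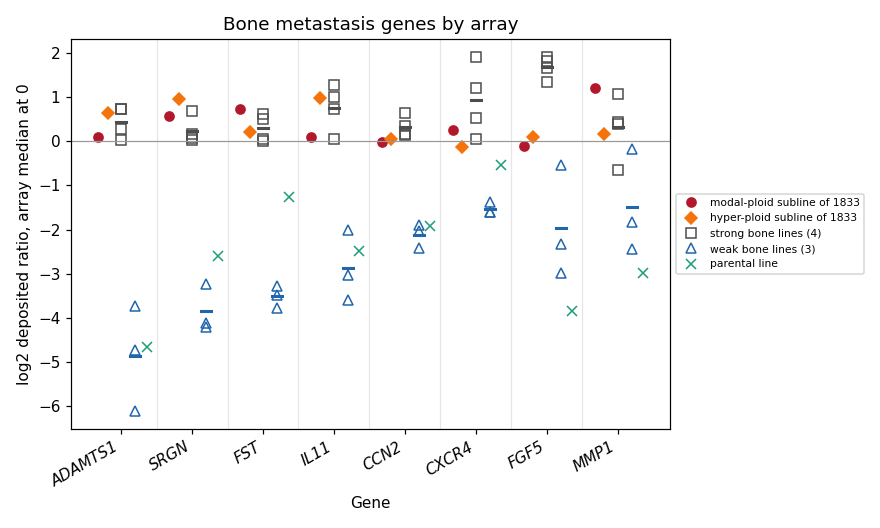
Log2 deposited ratio with the array median at 0 (vertical axis) of the 8 bone metastasis genes (horizontal axis), with 1 symbol per array and short bars for the means of the 4 strong and 3 weak lines. For ADAMTS1, SRGN, FST, IL11 and CCN2 both sublines lie near the strong lines and above every weak line, while FGF5 in the sublines, at -0.10 and 0.11, lies below all 4 strong lines.

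Of 17 tested osteolytic and bone-acting factors, 5 were higher and 3 lower in the sublines (median 0.21), beside 14% and 9.38% over all genes. With either subline array left out 3 were higher and 1 lower, and without any 1 weak line 1 was lower. DKK1, a secreted inhibitor of Wnt signalling that restrains osteoblasts, was 0.05 and -0.04 in the modal-ploid and hyper-ploid sublines, -0.12 to 0.66 in the strong lines and -1.77, -1.72 and -1.78 in the weak lines (difference 1.76, SE 0.21, adjusted p = 0.00149). TNFRSF11A, which encodes the receptor RANK, was dim on all weak and all strong arrays, and the sublines were at least 1.75-fold higher than the weak lines (adjusted p = 0.0038). TNFRSF11B, which encodes osteoprotegerin, the decoy for the RANK ligand, was likewise dim in both other groups and at least 1.28-fold higher in the sublines than in the weak lines (adjusted p = 0.00722). The TGF-beta ligand genes TGFB1 (0.91) and TGFB2 (0.75) were the other members that rose.

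Among those lower was CST6, an inhibitor of cysteine proteases, which was dim in both sublines and at least 3.69-fold higher in the weak lines (adjusted p = 0.00282). The interleukin 6 gene IL6 (-1.81) and the angiogenic factor gene VEGFA (-1.14) were the other members that fell. TNFRSF11A also stands among the 7 tested osteoblast and osteoclast markers, of which it alone passed (14.3%), near the 14% higher over all genes. CTSK, the collagen-degrading protease of osteoclasts, did not pass (0.44, adjusted p = 0.513).

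Inflammatory chemokines and cytokines that passed were lower more often than higher. Of 17 tested members 8 fell, 2 rose and 7 did not pass in the sublines, with a median of -1.81, beside 9.38% lower over all genes. In the strong lines 9 fell and 0 rose, with a median of -1.89. Without the modal-ploid array 4 fell and the median was -0.96.

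CCL20, a chemokine for CCR6-bearing lymphocytes, was dim on all subline and strong-line arrays and not on the weak ones. It stood at -0.78 and -1.04 in the modal-ploid and hyper-ploid sublines, against 5.15, 5.40 and 5.86 in the weak lines, which were at least 7.24-fold higher (adjusted p = 0.000488). The parental line, at -0.21, was close to the sublines. CXCL8, a neutrophil chemoattractant, was -2.35 and -2.03 in the modal-ploid and hyper-ploid sublines, -1.05 to 0.59 in the strong lines and 0.99, 1.38 and 1.10 in the weak lines. It differed by -3.34 from the weak lines (SE 0.42, adjusted p = 0.00173) and by -2.09 from the strong lines (adjusted p = 0.017), so for CXCL8 the sublines were below both.

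CXCL1, another neutrophil chemoattractant, differed between the sublines, with -1.61 and 0.22 in the modal-ploid and hyper-ploid sublines, against 2.54, 2.51 and 2.57 in the weak lines. The difference of the means was -3.23 (SE 0.65, adjusted p = 0.0105), and without the modal-ploid array it did not pass (adjusted p = 0.0763). IL32, a cytokine made by many stimulated cells, was dim in both sublines and at least 1.44-fold higher in the weak lines (adjusted p = 0.00473), of which 1 was dim too.

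CCL2 went the other way. This monocyte chemoattractant was 7.03 and 7.0 in the modal-ploid and hyper-ploid sublines, -0.95 to 1.20 in the strong lines and -1.24, -0.05 and -0.27 in the weak lines, with every strong and weak array dim. The sublines were at least 37.3-fold higher than the weak lines (adjusted p = 0.000488) and at least 38.1-fold higher than the strong lines (adjusted p = 0.00103). The original line 1833 after short culture was among the dim arrays, so high CCL2 was seen in its sublines and not in the line itself. The parental line stood at 2.63. The other member that rose was IL23A, a subunit of interleukin 23, at least 1.46-fold above the weak lines, in which it was dim.

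Of 17 NF-kB pathway and feedback genes 3 were lower and 0 higher (median -0.47), beside 9.38% lower over all genes. All 3 calls were lost without the modal-ploid array, and 7 members were lower with only the 5 arrays compared. NFKBIA, the inhibitor that NF-kB itself induces, was -0.87 and -0.39 in the modal-ploid and hyper-ploid sublines, against 1.07, 1.0 and 0.38 in the weak lines (-1.45, SE 0.28, adjusted p = 0.00887). TNIP1 (-1.11) and TNFAIP2 (-0.99) also fell. A further TNFAIP2 probe set differed by -4.34 (adjusted p = 0.0016), and the mean of both by -2.67. By contrast the subunit genes NFKB1 (-0.22) and REL (0.14) did not pass. The strong lines had 4 lower.

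Acute phase and complement genes held several of the widest gaps. Of 14 tested, 8 were lower and 2 higher in the sublines (median -1.66), beside 9.38% lower over all genes, and 7 were lower and 2 higher in the strong lines (median -1.16). SERPINA1, which encodes alpha-1 antitrypsin, was -1.80 and -1.46 in the modal-ploid and hyper-ploid sublines, -1.62 to 0.00 in the strong lines and 5.55, 5.61 and 5.33 in the weak lines. Both sublines were dim, and the weak lines were at least 64.7-fold higher (adjusted p = 0.000262).

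LCN2, an iron-siderophore-binding lipocalin, was also dim in both sublines, and the weak lines, at 4.97, 4.62 and 4.82, were at least 51.3-fold higher (adjusted p = 0.000488). SERPINA3, which encodes alpha-1 antichymotrypsin, was also dim in both sublines and at least 16.9-fold higher in the weak lines (adjusted p = 0.00163).

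Complement component C3 differed within the pair. C3 was -2.52 and 0.55 in the modal-ploid and hyper-ploid sublines, against 3.50, 2.95 and 4.07 in the weak lines (-4.49, SE 0.97, adjusted p = 0.0135), and it did not pass without the modal-ploid array (adjusted p = 0.0877). All 4 strong lines were dim. C2, a complement protease, was lower than in the weak lines (-2.22, SE 0.19, adjusted p = 0.000541) and than in the strong lines (-1.48, adjusted p = 0.00417). The members that rose were C4BPB (3.80, SE 0.40, adjusted p = 0.00096), a chain of the complement inhibitor C4b-binding protein, and CD55 (1.16), a membrane inhibitor of complement. With the modal-ploid array left out, 4 members of the list were lower.

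Of 21 genes of antigen presentation 11 were lower, 0 higher and 10 did not pass (median -0.88), beside 9.38% lower over all genes, and 11 were lower and 0 higher in the strong lines (median -0.60). Without the modal-ploid array 7 were lower. HLA-DRA, the alpha chain of HLA-DR, was -2.22 and -1.29 in the modal-ploid and hyper-ploid sublines, -0.14 to 0.04 in the strong lines and 3.05, 2.82 and 3.12 in the weak lines. The difference was -4.75 (SE 0.25, adjusted p = 0.000118), 27-fold higher in the weak lines with the modal-ploid subline dim, and the sublines were also below the strong lines by -1.67 (adjusted p = 0.00711).

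HLA-DRB1 (-3.70), CD74 (-3.33), the invariant chain, and HLA-DMB (-2.30), a peptide-loading subunit, fell as well. HLA-DR genes have near-identical relatives, and probes for one may read another. CIITA, the class II transactivator, did not pass (-0.09), and among class I genes HLA-B (-1.24) was one that fell and HLA-C (-0.75) one that did not pass. Markers of leukocytes, which also carry class II molecules, summed to 2495 to 3153 scaled signal units over 16 genes in the sublines, 2962 to 4378 in the strong lines and 8009 to 8115 in the weak lines. LAPTM5, a lysosomal membrane protein, made up 1150 and 1445 of those units in the modal-ploid and hyper-ploid sublines, against 6565, 6484 and 6295 in the weak lines (-2.34, adjusted p = 0.00101). The part of leukocyte markers in the class II result was not tested. PTPRC and SPI1, defining genes of leukocytes, were dim on every subline and weak array. LAPTM5, ITGB2, CD53, CD2 and FCER1G were dim on none of those arrays. Of 12 leukocyte markers tested, 2 were lower in the sublines (16.7%), LAPTM5 and HCLS1 (-2.14), beside 9.38% lower and 14% higher over all genes. ITGB2 was higher (0.69), a call lost in 7 of 15 settings, and 9 did not pass.

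Among TGF-beta pathway and response genes 9 of 21 were lower and 0 higher (median -0.53), beside 9.38% lower over all genes, and in the strong lines 9 were lower and 2 higher. TGFBI, a secreted matrix protein named for its induction by TGF-beta, was -2.38 and -1.92 in the modal-ploid and hyper-ploid sublines, -1.23 to -0.02 in the strong lines and 3.57, 3.44 and 3.28 in the weak lines. It differed by -5.57 (SE 0.36, adjusted p = 0.000256), 47.6-fold higher in the weak lines, and was below the strong lines by -1.71 (adjusted p = 0.0191). ID1, an inhibitor of differentiation induced by BMP signals, fell by 2.44 on the log2 scale (adjusted p = 0.00306). LTBP2 (-1.19) and SMAD3 (-0.83) passed too, but the kept probe sets of SMAD3 differ in sign and with their mean it did not pass (adjusted p = 0.617). Leaving out the modal-ploid array left 2 members lower, leaving out the hyper-ploid array or weak line 2293 left 3, and leaving out weak line 2296 left 4.

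**Figure D2:**
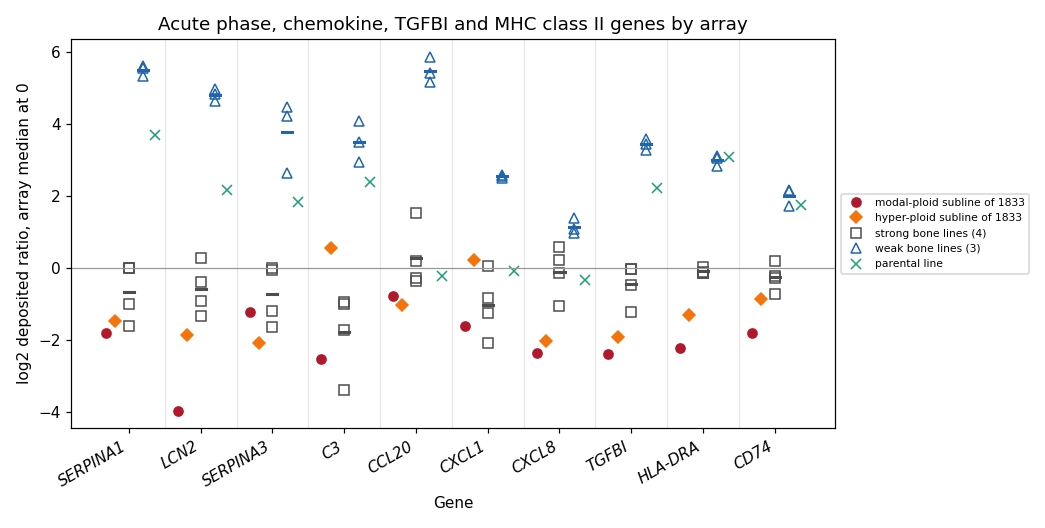
Log2 deposited ratio with the array median at 0 (vertical axis) of 10 acute phase, chemokine, TGF-beta response and MHC class II genes (horizontal axis), with 1 symbol per array and short bars for the means of the 4 strong and 3 weak lines. For all 10 genes both sublines lie below the 3 weak lines, and the hyper-ploid subline exceeds the modal-ploid one for C3, at 0.55 against -2.52.

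Several YAP and TEAD targets rose. Of 20 tested members 9 were higher and 1 lower (median 0.75), beside 14% and 9.38% over all genes, and 10 were higher and 2 lower in the strong lines (median 0.73). Beside CCN2, ASAP1, an Arf GTPase-activating protein, was 1.5 and 1.38 in the modal-ploid and hyper-ploid sublines, against -1.21, -1.47 and -0.94 in the weak lines (2.65, SE 0.23, adjusted p = 0.000572). ASAP1 also exceeded the strong lines by 1.38 (adjusted p = 0.0103). AMOTL2, a regulator of YAP that is also its target, was higher by 1.44 (adjusted p = 0.00098), and DLC1, a GTPase-activating protein, was lower by -2.44 (adjusted p = 0.00098). Probe sets of DLC1 differ in sign, and the call was lost with their mean (adjusted p = 0.113).

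The actin and myosin list had 9 of 22 higher and 3 lower, beside 14% and 9.38% over all genes, and 5 and 4 higher without the modal-ploid and the hyper-ploid array. MYH10, a non-muscle myosin heavy chain, was among the higher ones (2.41, adjusted p = 0.00191). Immediate early and MAPK feedback genes had 7 of 23 higher and 1 lower. DUSP1, a phosphatase of MAP kinases, was 0.65 and 0.35 in the modal-ploid and hyper-ploid sublines, 0.01 to 0.79 in the strong lines and -2.38, -1.97 and -1.78 in the weak lines (2.54, SE 0.28, adjusted p = 0.00101). SPRED2, an inhibitor of the MAP kinase pathway, rose too (1.63, adjusted p = 0.000944) and exceeded the strong lines by 1.31 (adjusted p = 0.00429).

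Cholesterol and fatty acid synthesis followed the bone metastasis genes in the share of members above the weak lines. Of 21 tested members 16 were higher and 0 lower in the sublines (median 1.22), beside 14% higher over all genes. In the strong lines 5 were higher and 0 lower (median 0.36), beside 10.4% higher over all genes. Tested directly, 12 of 21 were higher in the sublines than in the strong lines and 0 lower, beside 6.53% higher over all genes. In that test 4 passed without the modal-ploid array, 4 without the hyper-ploid array and 8 without strong line 1833 or without strong line 2274. Without the modal-ploid array 11 of 21 were higher than in the weak lines, and without the hyper-ploid array 13.

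INSIG1, a sterol-responsive regulator that retains SREBP in the endoplasmic reticulum, was 2.19 and 2.51 in the modal-ploid and hyper-ploid sublines, -0.25 to 0.47 in the strong lines and -1.31, -0.58 and -1.37 in the weak lines. It differed by 3.44 from the weak lines (SE 0.30, adjusted p = 0.000572) and by 2.28 from the strong lines (adjusted p = 0.00474). The parental line, at 1.5, was also above every strong and weak line.

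FADS2, a fatty acid desaturase, was 1.85 and 1.56 in the modal-ploid and hyper-ploid sublines, -0.07 to 0.41 in the strong lines and -0.74, -0.34 and -1.09 in the weak lines (2.43, SE 0.25, adjusted p = 0.000901). MSMO1, a sterol C4 demethylation enzyme, differed by 1.99 (SE 0.18, adjusted p = 0.000578) and SQLE, squalene epoxidase, by 1.67 (SE 0.16, adjusted p = 0.000791). Each of FADS2, MSMO1 and SQLE was also above the strong lines, by 1.61, 1.65 and 1.29. Other members that rose were SCD (3.16), FASN (2.77), IDI1 (1.95) and HMGCS1 (1.92), which encode stearoyl-CoA desaturase, fatty acid synthase, isopentenyl diphosphate isomerase and HMG-CoA synthase. The regulator genes SREBF1 (0.91) and SREBF2 (0.86) rose by less.

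**Figure D3:**
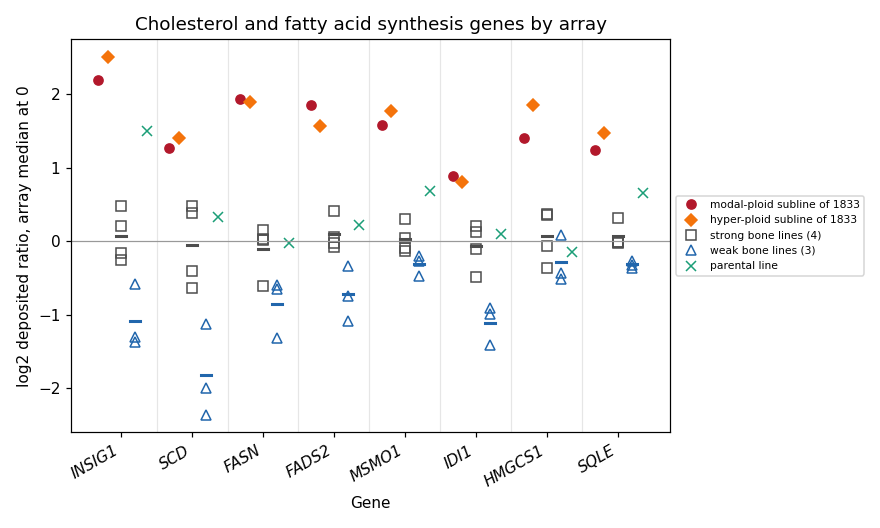
Log2 deposited ratio with the array median at 0 (vertical axis) of 8 cholesterol and fatty acid synthesis genes (horizontal axis), with 1 symbol per array and short bars for the means of the 4 strong and 3 weak lines. Both sublines lie above all strong and all weak lines for each of the 8 genes, for INSIG1 at 2.19 and 2.51.

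Unfolded protein and amino acid stress genes had 11 of 23 higher and 0 lower in the sublines (median 1.06), beside 14% higher over all genes, and 8 higher and 1 lower in the strong lines (median 0.43). SLC7A11, the cystine transporter, was 2.24 and 1.47 in the modal-ploid and hyper-ploid sublines, -0.08 to 1.21 in the strong lines and -1.85, -1.25 and -0.97 in the weak lines (3.22, SE 0.45, adjusted p = 0.00246). SLC7A5, a transporter of large neutral amino acids, was 0.34 and 0.37 in the modal-ploid and hyper-ploid sublines, -0.44 to 0.41 in the strong lines and -2.45, -2.34 and -2.48 in the weak lines (2.78, SE 0.24, adjusted p = 0.000572).

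PHGDH, the entry enzyme of serine synthesis, rose by 2.82 (adjusted p = 0.000901) and HERPUD1, a factor of endoplasmic reticulum degradation, by 1.98 (adjusted p = 0.00101). PHGDH and HERPUD1 also exceeded the strong lines, by 1.55 and 1.53, while SLC7A5 did not pass there (0.24, adjusted p = 0.534). Without the modal-ploid array 4 of 23 passed, as did 4 without the hyper-ploid array. DDIT3, a stress-induced transcription factor, did not pass (-0.34).

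DNA replication genes had 6 of 34 higher (17.6%) and 1 lower (median 0.30), close to the 14% higher over all genes, and 2, 1 and 3 were higher without the modal-ploid, the hyper-ploid and the weak line 2293 array. Among those that passed were CDC6, a licensing factor, at 1.0 (adjusted p = 0.00589) and E2F1, a transcription factor of S phase genes, at -1.02 (adjusted p = 0.00855). Mitosis genes had 5 of 32 higher (15.6%) and 2 lower (median 0.06), also near the share over all genes. At most 1 was higher with either subline array left out, and 3 were with weak line 2295 or 2296 left out. MAD2L1, a spindle checkpoint protein, was lower (-1.09, adjusted p = 0.0035). PLK1, a mitotic kinase, was at 1.05 (adjusted p = 0.0114), and MKI67, a proliferation marker, did not pass (-0.21). MYC targets had 6 of 19 higher and 0 lower, with 2 higher without the hyper-ploid array, and MYC itself did not pass (0.00).

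Among 19 G1 and p53 genes 3 were higher (15.8%) and 1 lower (5.26%), beside 14% and 9.38% over all genes, so the higher share was near that over all genes. The lower one, TNFRSF10B (-0.95), did not pass with the mean of its kept probe sets (adjusted p = 0.146). BAX, a promoter of apoptosis, was 2.07 and 2.14 in the modal-ploid and hyper-ploid sublines, -1.08 to 0.06 in the strong lines and 0.54, 0.25 and -0.09 in the weak lines. It exceeded the weak lines by 1.87 (adjusted p = 0.00567) and the strong lines by 2.59 (adjusted p = 0.00385).

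Matrix proteases and inhibitors had 5 of 27 higher and 5 lower, and 1 higher and 3 lower with either subline array left out, or 3 higher and 4 lower without weak line 2293. Collagens and other matrix proteins had 3 of 30 higher and 6 lower, with 1 higher without the modal-ploid array and 3 lower without the hyper-ploid array. Integrins and adhesion molecules had 1 of 17 higher and 5 lower (median -0.44), and without the modal-ploid, hyper-ploid or weak line 2296 array 1, 2 and 3 were lower. Over all genes 14% were higher and 9.38% lower. TIMP1, an inhibitor of metalloproteases, was -1.66 and -1.33 in the modal-ploid and hyper-ploid sublines, -0.24 to 0.01 in the strong lines and 0.34, 0.24 and 0.30 in the weak lines (-1.78, SE 0.16, adjusted p = 0.000572). It was also lower than in the strong lines (-1.40, adjusted p = 0.00281). CTSB, a lysosomal cysteine protease, was lower than in the weak lines (-2.31, adjusted p = 0.000488) and not in the test against the strong lines (0.01, adjusted p = 0.972).

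COL6A3 (-2.92) and COL6A2 (-2.33), chains of type VI collagen, fell, and both were below the strong lines too, by -1.79 and -1.67. COL8A1, a short-chain collagen dim in all weak lines, was at least 3.98-fold higher in the sublines (adjusted p = 0.00173). The integrin subunit ITGA5 fell (-1.91, adjusted p = 0.00185), as did ITGB5 (-0.98, adjusted p = 0.00666), and the adhesion molecule MCAM rose (1.63, adjusted p = 0.00149).

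Epithelial markers had 1 of 20 higher (5%) and 4 lower (20%), beside 14% and 9.38% over all genes. Mesenchymal markers had 1 of 15 higher (6.67%) and 4 lower (26.7%), with fewer lower when the hyper-ploid array was left out. With the mean of all kept probe sets 4 mesenchymal markers were higher and 3 lower. Among the mesenchymal calls, CALD1 had kept probe sets of both signs (-1.27 to 0.21). CLDN4, a tight junction claudin, was -3.71 and -3.22 in the modal-ploid and hyper-ploid sublines, -0.39 to 0.08 in the strong lines and 0.78, 1.22 and 1.44 in the weak lines. It was dim in both sublines, at least 8.98-fold below the weak lines (adjusted p = 0.000118) and at least 3.62-fold below the strong lines (adjusted p = 0.00103). JUP, a junction plakoglobin, was lower than in the weak lines (-1.71, adjusted p = 0.00318) and higher than in the strong lines (1.33, adjusted p = 0.0145). SNAI2, a mesenchymal transcription factor, rose (1.36, adjusted p = 0.00262) and FN1, fibronectin, fell (-1.75, adjusted p = 0.0076). The epithelial adaptor subunit AP1M2 rose (2.76, adjusted p = 0.000488).

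Lung metastasis genes, a list drawn from work on lung-tropic sublines of the same parent, had 2 of 16 higher (12.5%) and 4 lower, beside 14% and 9.38% over all genes, and 2 lower without the modal-ploid array. FSCN1, the actin bundler fascin, rose (1.57, adjusted p = 0.00139), and EREG, the EGF receptor ligand epiregulin, fell (-1.68, adjusted p = 0.0041).

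Interferon-stimulated genes had 8 of 28 lower and 1 higher (median -0.33), beside 9.38% lower over all genes, and 4 and 5 lower without the modal-ploid and the hyper-ploid array. The strong lines had 3 lower and 0 higher. Against the strong lines 6 of 28 were lower and 0 higher, beside 4.98% lower over all genes, and 1 was lower with either subline array left out or without strong line 2274 and 2 without strong line 1833. IFI27, an interferon alpha-inducible gene, was -3.05 and -2.99 in the modal-ploid and hyper-ploid sublines, -0.42 to 0.13 in the strong lines and 1.05, 0.74 and 0.87 in the weak lines (-3.91, SE 0.19, adjusted p = 9.04e-05). OAS2, an oligoadenylate synthetase, fell (-1.29, adjusted p = 0.00878), and MX1, an antiviral GTPase, did not pass (0.03).

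Hypoxia and glycolysis genes had 8 of 28 lower and 2 higher (median -0.36), beside 9.38% lower over all genes. The lower count was 4 without the modal-ploid array, 5 without weak line 2293 or 2296 and 13 with the trimmed mean. EGLN3, an oxygen-sensing prolyl hydroxylase, was dim in both sublines and at least 2.97-fold higher in the weak lines (adjusted p = 0.00148), and TPI1, triosephosphate isomerase, fell (-1.21, adjusted p = 0.004). The NRF2 and aldehyde dehydrogenase list had 4 of 19 higher and 5 lower, beside 14% and 9.38% over all genes. That list had 1 lower with either subline array left out and 2 or 3 without a weak line. It held GCLM, a subunit of glutamate-cysteine ligase, at 1.59 (adjusted p = 0.00386) and GSTP1, a glutathione transferase, at -1.02 (adjusted p = 0.00496).

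**Figure D4:**
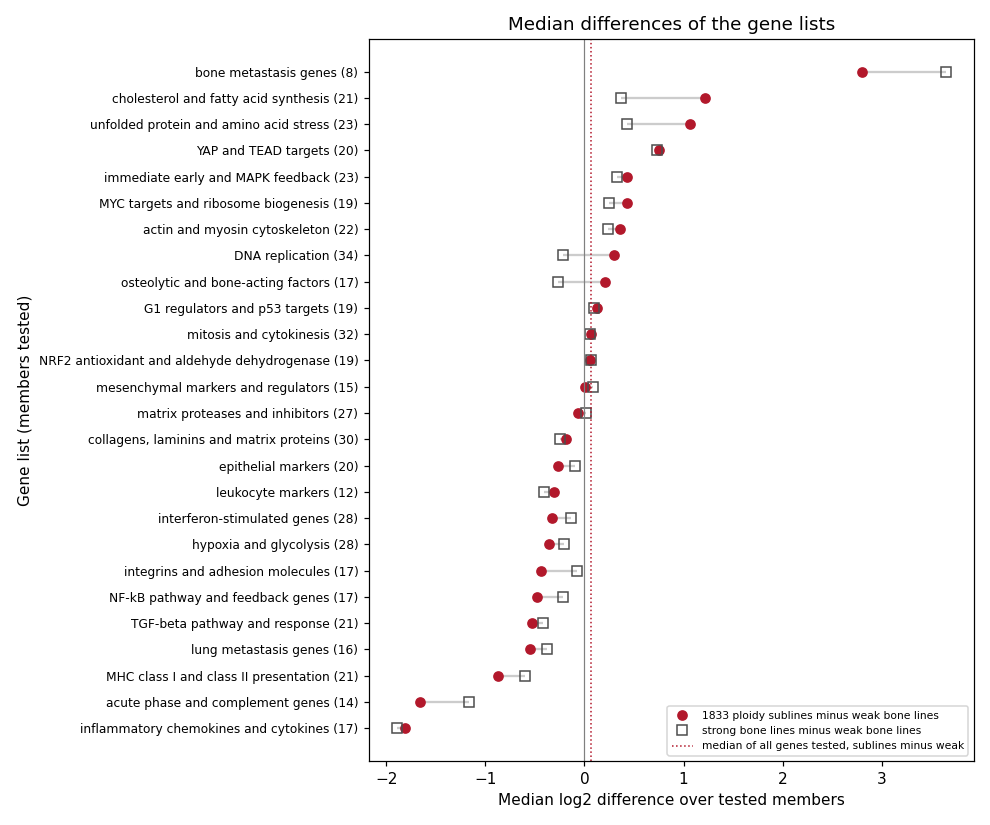
Median log2 difference over the tested members (horizontal axis) of each gene list with at least 8 of them (vertical axis, members tested in brackets), for the 1833 sublines (filled circles) and the strong bone lines (open squares), each minus the same 3 weak lines. Cholesterol and fatty acid synthesis stands at 1.22 in the sublines and 0.36 in the strong lines, and inflammatory chemokines and cytokines at -1.81 and -1.89.

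Several genes set the sublines apart from strong and weak lines alike. MAGEA6, a gene of the cancer-testis type, which is normally silent outside the germ line, was 7.93 and 8.49 in the modal-ploid and hyper-ploid sublines and dim on every strong and weak array, so that the sublines were at least 54.2-fold above the weak lines (adjusted p = 0.00246) and at least 55.3-fold above the strong lines (adjusted p = 0.00416). MAGEA12 was at least 9.47-fold above the weak lines (adjusted p = 0.00245). MAGE-A genes are near-identical, so which of them the probes read is uncertain.

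SPANXB1 and SSX1, also known as cancer-testis genes and with close copies, exceeded the strong lines by 4.86 (adjusted p = 0.0141) and 4.25 (adjusted p = 0.0181). Neither passed against the weak lines, where SPANXB1 ran between 0.37 and 3.46. No list of such genes was tested.

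AMPH, the endocytic adaptor amphiphysin, was 3.93 and 3.78 in the modal-ploid and hyper-ploid sublines, -0.82 to 0.65 in the strong lines and -0.92, -1.04 and 0.40 in the weak lines (4.37, SE 0.53, adjusted p = 0.00148). It exceeded the strong lines by 3.92 (adjusted p = 0.00479). GJA1, the gap junction protein connexin 43, was 2.94 and 2.61 in the modal-ploid and hyper-ploid sublines, -0.63 to 0.60 in the strong lines and -2.38, -1.07 and 0.34 in the weak lines (3.81, SE 0.70, adjusted p = 0.00713). TIMM50, a mitochondrial import subunit, exceeded the strong lines by 3.24 (adjusted p = 0.0369). Against the weak lines TIMM50 was higher by 2.74 (adjusted p = 0.046), a call lost in 8 of 15 settings. RIMS2, a presynaptic protein, was dim in all weak lines and at least 7.28-fold higher in the sublines (adjusted p = 0.00898).

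The salivary-type cystatins CST1, CST2 and CST4, secreted inhibitors of cysteine proteases with near-identical sequences, were much lower in the sublines. CST1 was -4.25 and -4.79 in the modal-ploid and hyper-ploid sublines, -0.57 to 0.48 in the strong lines and 0.50, 1.01 and 0.59 in the weak lines. It differed from the weak lines by -5.22 (SE 0.33, adjusted p = 0.000256) and from the strong lines by -4.51 (adjusted p = 0.00103). CST2 and CST4 differed by -4.55 and -3.70 from the weak lines and by -3.74 and -3.39 from the strong lines. The probes of these genes may read each other, so the 3 are not independent. In the parental line CST1 stood at -2.0, between the sublines and the other lines.

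TFF1, a secreted trefoil peptide, was -4.23 and -4.70 in the modal-ploid and hyper-ploid sublines, 0.00 to 0.63 in the strong lines and 0.60, 0.77 and -1.36 in the weak lines. It was lower than in the weak lines (-4.47, SE 0.58, adjusted p = 0.00187) and than in the strong lines (-4.74, adjusted p = 0.00369). LBH, a transcription cofactor, was below the strong lines (-3.16, adjusted p = 0.0182), with -1.07 and -3.72 in the modal-ploid and hyper-ploid sublines, and did not pass against the weak lines (adjusted p = 0.176).

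**Figure D5:**
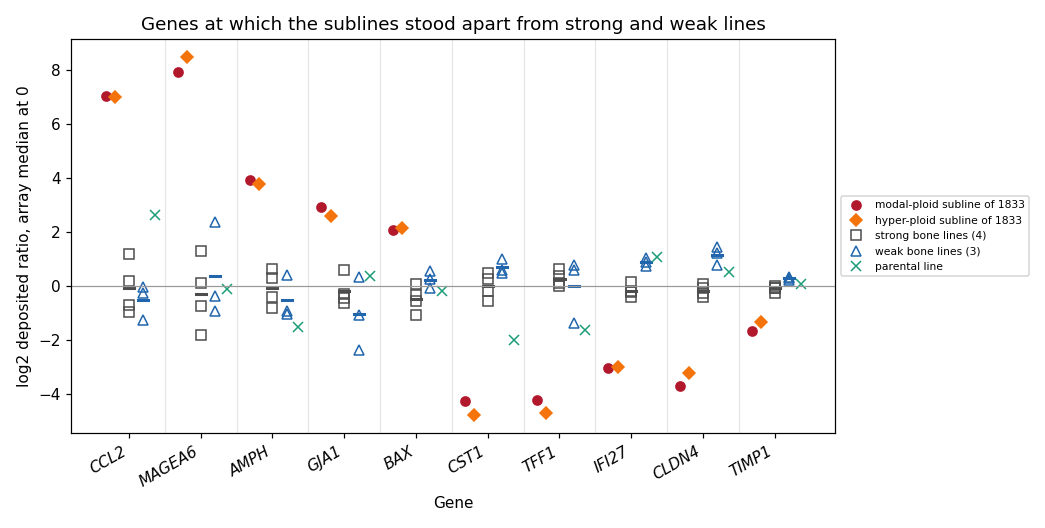
Log2 deposited ratio with the array median at 0 (vertical axis) of 10 genes (horizontal axis) at which both sublines lie outside the range of the 4 strong and the 3 weak lines, with 1 symbol per array and short bars for group means. CCL2 stands at 7.03 and 7.0 in the sublines with all strong and weak arrays dim, and CST1 at -4.25 and -4.79.

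Some of the widest gaps to the weak lines, those of SOCS2 and PLAC8, were shared with the strong lines. SOCS2, a suppressor of cytokine signalling, was higher by 3.70 (SE 0.26, adjusted p = 0.000351), beside 2.80 in the strong lines. PLAC8 was higher by 3.54 (SE 0.39, adjusted p = 0.00107), beside 2.95 in the strong lines. BIK, a pro-apoptotic BH3-only protein, was dim in both sublines and at least 10.7-fold higher in the weak lines (adjusted p = 0.00148). PDZK1IP1, a small membrane protein, was at least 9.59-fold higher in the weak lines (adjusted p = 0.00749).

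The sublines resembled each other more than either resembled another line. The SD of log2 differences over all genes was 0.51 between them and 0.83 to 0.97 between a subline and a strong line. It was 1.01 to 1.04 between a subline and a weak line. From the parental line it was 0.97 for the modal-ploid and 0.98 for the hyper-ploid subline. Both subline arrays also had the lower array signal, and the part of that in their resemblance was not tested. Set against the weak lines separately, the modal-ploid subline gave 836 genes (9.17%), 486 higher (5.33%) and 350 lower (3.84%). The hyper-ploid subline gave 913 (10%), 542 higher (5.94%) and 371 lower (4.07%). With the trimmed mean the splits turned to 440 higher and 490 lower for the modal-ploid and 415 and 621 for the hyper-ploid subline, with cyclic loess to 452 and 478 and to 456 and 548, and with only the 5 arrays compared to 23 and 74 and to 46 and 111. Each of these is 1 array against 3, in which a lone array is assumed to vary like the other groups.

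More than 2-fold differences between the sublines were seen for 439 genes, with the hyper-ploid subline higher for 232 and lower for 207. There was no replicate of either ploidy and hence no test. Among genes called against the weak lines, C3 (3.07) and SCG5 (2.85), a chaperone of prohormone convertase, were far higher in the hyper-ploid than in the modal-ploid subline. SCG5 was -1.24 and -4.09 in the hyper-ploid and modal-ploid sublines, against 0.84 to 0.96 in the weak lines. FERMT1, the integrin activator kindlin-1, was lower in the hyper-ploid subline (-3.36) than in the modal-ploid one (-0.97). In all 3 genes the lower subline was dim, which leaves the size of the gap uncertain. SCN2B, CRIP2 and RNF17 also differed by more than 2-fold within the pair, but all were dim in both sublines and their order there carries no information.

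Kept probe sets of a gene also lay more than 1 log2 unit apart, with the same sign, for COL6A2, CTSB, DUSP1, FERMT1, FN1, FST, HLA-DRA, IL11, INSIG1, ITGB5, SERPINA1, SOCS2, SPRED2, SQLE, SRGN and TNFRSF11B. The widest of these spreads were -7.89 to -4.75 for HLA-DRA and 1.49 to 4.86 for TNFRSF11B.

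Several named calls against the weak lines rested on both sublines. Without the modal-ploid array 21 of 123 named calls no longer passed, GJA1, RIMS2, NFKBIA, TNIP1, TNFAIP2, ITGB5, LTBP2, PLK1 and SCG5 among them. Without the hyper-ploid array 27 did not pass, with E2F1, FN1, OAS2, PDZK1IP1, TNFRSF11B, RIMS2, LTBP2, PLK1 and FERMT1 among them. In every such case the direction was the same. Calls against the strong lines that were lost with either subline array left out included those of ASAP1, CXCL8, TGFBI, PHGDH, GJA1, TIMM50, SPANXB1 and SSX1.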

How the data were processed

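The deposited values were linear ratios per probe set, 1 array per line, and how the authors made them is not given in the sources used here. Read from the values, the 10 arrays of the parental, subline and bone lines shared 1 divisor per probe set (for 91.6% of probe sets their median over the 10 arrays), and the other 9 arrays had another and were not used. Signals behind the ratios were recovered as whole steps of 0.1 units for 99.99% of probe sets (tolerance 0.01 steps at low values) and served for filters, bounds and alternatives. The number of arrays limits the precision.

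Ratios were put on the log2 scale and each array was centred on its median. Of 22283 probe sets, 19071 had 1 gene symbol in the platform annotation, 1043 several and 2169 none, and only the first were named. Probe sets above the 40th percentile of their own array on at least 2 of the 10 arrays were kept, and the one with the highest mean signal stood for its gene. Group means over the 10 arrays were fitted with limma 3.58.1 (lmFit, eBayes) in R 4.3.3, with 6 residual and 2.27 prior degrees of freedom and Benjamini-Hochberg adjustment over 9118 genes. The fit was tested on simulated data.

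Genes were named by rule. It took the 10 highest and 10 lowest called differences measured on both sides, and the 5 and 5 largest by bound where a group was dim. It added all bone metastasis genes, up to 4 members of each other list with the smallest p, the 5 and 5 largest differences from the strong lines and the 3 and 3 largest between the sublines. Other list members were named after their values were seen. Members and lists were chosen with earlier results of these data known. Alternatives changed scale, normalization, filter, probe-set rule, arrays fitted and variance model, and left out each array in turn. Promoter matches used RefSeq sequence.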

Additional observations from a re-analysis of the deposited data

Results flagged for a closer look

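In 4 of the 142 named genes strong line 1833 stood apart from the other 3 strong lines by more than a standard outlier limit. It is the line the sublines came from. CRIP2 was 1.09 in strong line 1833, against 0.11 to 0.20 in the other strong lines. JUP was -0.87 there, against -1.26 to -1.19. S100A4 was -0.35, against -0.03 to -0.01. SQLE was 0.32, against -0.03 to -0.01. Chance alone sets apart 1 of the strong lines, whichever it is, in about 1 in 20 such groups. That rate is not the rate for line 1833 alone, and the named genes were chosen in part by their values in these data. Groups of 2 and 3 arrays were not examined in this way.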

How the results depend on the processing

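No named gene called against the weak lines changed direction under any of the 15 alternatives, and between 0 and 27 of 123 named calls were lost in each. The count for the sublines against the weak lines ranged from 836 to 1746 when 1 array was left out, from 138 to 994 for the sublines against the strong lines and from 825 to 1817 for the strong against the weak lines. For the modal-ploid subline alone it ranged from 276 to 547 and for the hyper-ploid subline alone from 393 to 623. Quantile normalization gave 653 genes for the sublines against the strong lines, 377 for the modal-ploid and 436 for the hyper-ploid subline alone. For the modal-ploid and hyper-ploid sublines alone the counts were 424 and 508 with no filter on dim probe sets, 1339 and 1504 with the 60th percentile filter, 97 and 157 with only the 5 arrays compared, and 1383 and 1555 with an intensity trend. Fewer arrays leave fewer degrees of freedom; the cause of the other shifts was not tested. Using the mean of all kept probe sets ended 6 named calls, those of CALD1, DLC1, PECAM1, RFC5, SMAD3 and TNFRSF10B. No paired analysis was possible because the labels match no subline to a weak line. Subline arrays had the lower overall signal, which limits what can be said of dim genes there.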
